A study of Mus musculus with 8 samples.

Results

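Interferon and RNA sensing genes were examined in mouse embryonic stem cells in which MYC was inhibited and then released. Cells that meet viral RNA detect it with the helicases RIG-I and MDA5, whose signal leads to the production of interferon; interferon in turn acts through its receptors on transcription factors, STAT2 and IRF9 among them, that switch on antiviral genes. Pluripotent stem cells are known for a weak interferon response and for keeping a subset of antiviral genes active without interferon. The genes were taken from a list of 9 symbols: the RNA sensors Ddx58 (RIG-I) and Ifih1 (MDA5), the transcription factors Irf1, Irf7, Irf9 and Stat2, and the effectors Oas1a, Isg15 and Ifitm1. Of these, 8 genes were measured by 11 probe sets annotated to 1 gene symbol, out of 18193 genes and 34945 such probe sets on the array. The only probe set listing Isg15, a ubiquitin-like modifier, lists another gene as well, and Isg15 was not analysed here.

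The cells grew on gelatine, with neither feeders nor serum, in a medium called 2i, which holds leukaemia inhibitory factor, the MEK inhibitor PD0325901 at 1 μM and the GSK3 inhibitor CHIR99021 at 3 μM; all groups shared this medium. Of 8 arrays, 3 came from cells given DMSO, the solvent, for 60 h, and 2 from cells given 64 μM of 10058-F4, a small molecule that disturbs the pairing of MYC with MAX, for 60 h. The last 3 came from released cells, which had the same 60 h of inhibitor and then 48 h in medium from which it had been removed. No DMSO array came from cells kept for these further 48 h. Release and time in culture therefore cannot be told apart. The labels name no strain and do not state that replicates came from separate cultures. The p-values therefore cover no more than the scatter among these 8 arrays, and that scatter may be technical. With no reads to count, precision depends on how many arrays there are: over all probe sets fitted, log2 changes had a median standard error of 0.0901 for inhibitor-treated against DMSO arrays and 0.0806 for released against DMSO arrays.

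The arrays carried the markers of the labelled cell type. In these bulk samples, fewer cells of a type and less RNA per cell cannot be told apart. All 10 stem cell markers, among them Pou5f1 (12.11 to 12.41 on the log2 scale) and Nanog (11.79 to 12.0), were well above the Trpn control probe sets in each group, and their summed linear level was 32956 to 33523 with DMSO, 33117 to 33124 with the inhibitor and 33344 to 34464 after release. With the inhibitor 4 of the 10 rose and 3 fell, from Zfp42 (0.69) to Utf1 (-1.79). Over all genes, 18.5% rose and 21.1% fell. Of 13 measured leukocyte and macrophage markers, 2 rose with the inhibitor (Laptm5 and Cd68) and 1 fell (Fcgr3), and their summed level was 1226 to 1310 with DMSO, 2503 to 2561 with the inhibitor and 1591 to 1693 after release. The leukocyte markers Ptprc (2.55 to 2.89) and Itgam (2.48 to 2.92) stayed on all arrays within the range of bacterial Trpn control probe sets, 2.15 to 2.95, which receive no mouse RNA. Only these 2 of the 13 stayed below the highest Trpn control throughout. Others lay well above it, such as Laptm5 (9.68 to 10.89), Cd68 (7.26 to 8.84) and Cd3e (5.89 to 6.5). After release, 3 of the 13 were higher than with DMSO, Cd68 (0.58), Laptm5 (0.42) and Cd3e (0.38), and 0 were lower. The summed level of 12 fibroblast and feeder cell markers was 666 to 681 with DMSO, 385 to 432 with the inhibitor and 586 to 617 after release, and 2 of them fell with the inhibitor, Fbln1 (-1.02), from a mean level of 8.98 to 7.97, and Thy1 (-0.40); Col3a1 (2.12 to 2.51) stayed below the highest Trpn control. The summed level of 9 trophectoderm markers was 968 to 1071 with DMSO, 3257 to 3334 with the inhibitor and 731 to 809 after release. With the inhibitor 4 of them rose, Krt18 (5), Krt8 (3.24), Eomes (2.23) and Gata3 (1.28), and 0 fell. Against DMSO, Krt18 was still higher after release (1.59) and Tfap2c lower (-1.08). For 7 endothelial markers the sum was 323 to 349 with DMSO, 422 to 445 with the inhibitor and 305 to 310 after release. With the inhibitor 2 of these rose, Tek (0.69) and Pecam1 (0.42), and 1 fell, Cldn5 (-0.31). Of 8 primitive endoderm markers 0 rose and 2 fell with the inhibitor, Sox7 (-0.72) and Foxa2 (-0.38). The 3′ minus 5′ difference of the Gapdh control probe sets was -0.13 to -0.108 with DMSO, -0.216 to -0.148 with the inhibitor and -0.133 to -0.117 after release, while that of Actb overlapped between groups (0.248 to 0.288 over all arrays). The part of these differences in the results that follow was not tested.

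After 60 h with the inhibitor, Oas1a, Ddx58, Irf1, Ifitm1 and Irf9 were lower than in DMSO, by between 1.29-fold for Irf9 and 2.88-fold for Oas1a, and no member rose. Of the 11 probe sets, 6 fell past a limma adjusted p of 0.05, against 19.9% of all probe sets tested, and 0 rose, against 17.5%; at an unadjusted p under 0.05 the counts were 7 lower and 0 higher. By gene, taking the probe set with the highest mean level, 5 of 8 fell, against 21.1% of all genes, and 0 rose, against 18.5% (6 and 0 at an unadjusted p). The median log2 change over the 8 genes was -0.47, beside -0.06 over all genes. Members were chosen with earlier results of these data known, so these shares are a description and not an independent test.

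**Figure D1:**
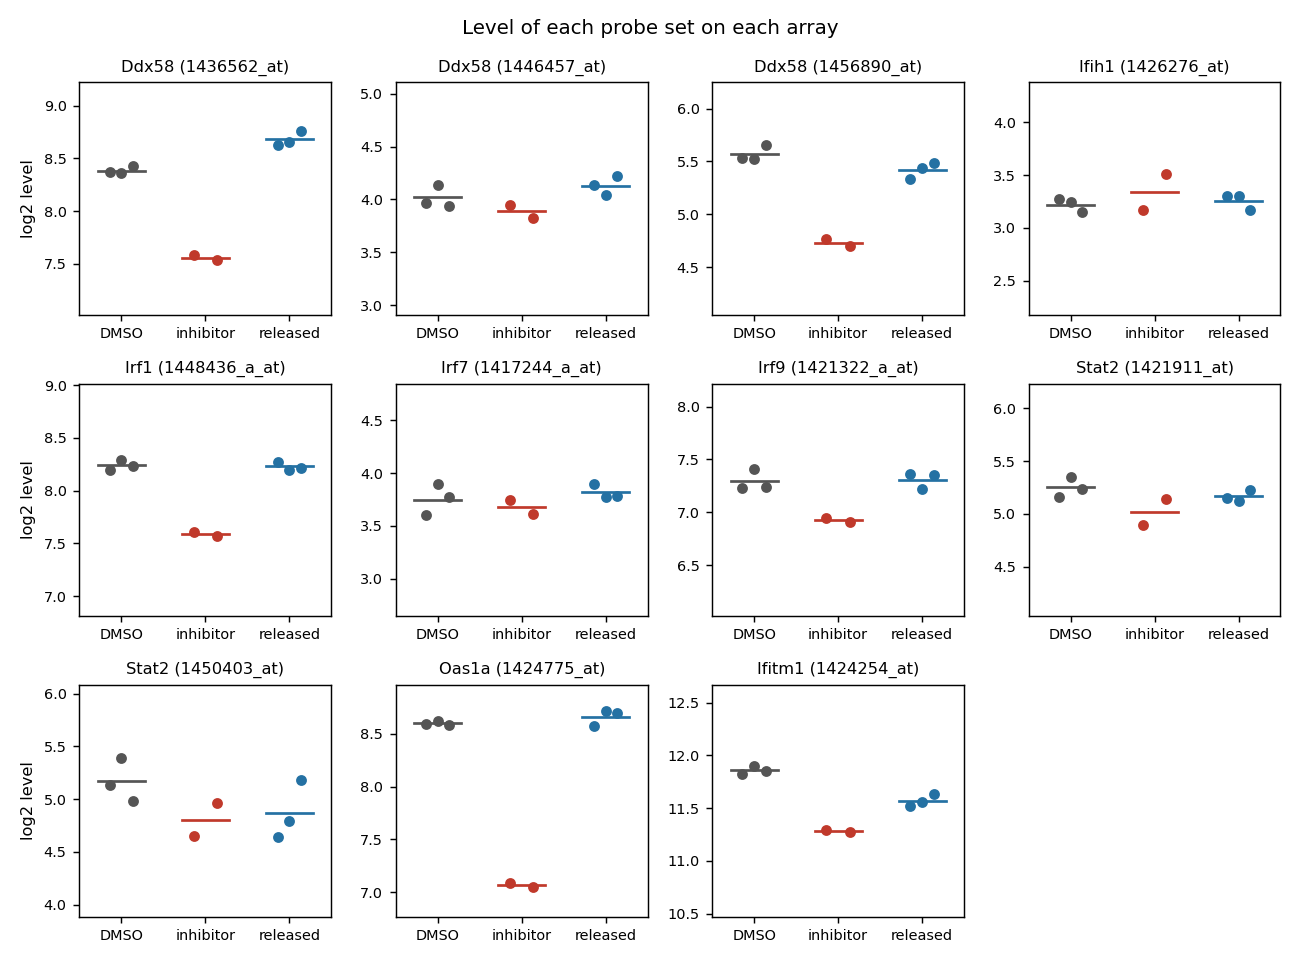
Log2 level (vertical axis, each panel spanning the same range of 2.2 log2 units) of the 11 probe sets on the 3 DMSO, 2 inhibitor-treated and 3 released arrays; points are arrays and lines are group means. Oas1a, Irf1, Irf9, Ifitm1 and 2 of the 3 Ddx58 probe sets lie lower on both inhibitor-treated arrays than on every DMSO array, and Ifitm1 stays between in released cells.

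Of the RNA sensors, Ddx58 fell and Ifih1 did not pass the test. Ddx58 encodes RIG-I, a helicase that binds short double-stranded RNA with a triphosphate end. Its probe set with the highest level, 1436562_at, had log2 levels of 8.37, 8.36 and 8.43 with DMSO, 7.58 and 7.54 with the inhibitor, and 8.63, 8.65 and 8.76 after release. The 3 groups did not overlap, with inhibitor-treated arrays lowest and released arrays highest. The log2 change with the inhibitor was -0.82 ± 0.07 (moderated standard error), or 1.77-fold lower (limma adjusted p = 1.01e-05). A second probe set, 1456890_at, read 5.53, 5.52 and 5.66 with DMSO, 4.77 and 4.70 with the inhibitor, and 5.33, 5.44 and 5.49 after release. It fell by nearly the same amount (-0.84 ± 0.08; limma adjusted p = 2.12e-05), but here the released arrays lay below the DMSO arrays. The remaining probe set, 1446457_at, ran from 3.82 to 4.22 over all arrays, with overlapping groups, and did not pass (-0.13 ± 0.088; limma adjusted p = 0.293).

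Ifih1 encodes MDA5, the helicase that senses long double-stranded RNA. It read 3.27, 3.25 and 3.15 with DMSO, 3.17 and 3.51 with the inhibitor, and 3.30, 3.30 and 3.17 after release. All groups overlapped, the levels lay just above the Trpn controls, and the change with the inhibitor was 0.12 ± 0.1 with a 95% interval of -0.11 to 0.34 (limma adjusted p = 0.416).

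Among the transcription factors, Irf1 and Irf9 fell, while Irf7 and Stat2 did not pass. Irf1, the interferon regulatory factor first linked to the interferon beta gene, read 8.20, 8.29 and 8.23 with DMSO, 7.61 and 7.57 with the inhibitor, and 8.27, 8.20 and 8.21 after release. Both inhibitor-treated arrays lay below all others, and the log2 change was -0.65 ± 0.067, or 1.57-fold lower (limma adjusted p = 3.59e-05). Irf9, a DNA-binding partner of STAT2, read 7.23, 7.41 and 7.24 with DMSO, 6.95 and 6.91 with the inhibitor, and 7.36, 7.22 and 7.35 after release. Its fall was smaller (-0.37 ± 0.081, 1.29-fold; limma adjusted p = 0.0048), again with both inhibitor-treated arrays below all others.

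Stat2, a transcription factor activated by interferon receptors, was read by a pair of probe sets. On both, the inhibitor-treated arrays lay below the DMSO arrays by a narrow gap, and the released arrays overlapped both groups. With 1421911_at it read 5.16, 5.35 and 5.24 with DMSO, 4.89 and 5.14 with the inhibitor, and 5.15, 5.12 and 5.23 after release. Its log2 change with the inhibitor was -0.23 ± 0.093, with an interval of -0.44 to -0.02, and did not pass after adjustment (limma adjusted p = 0.077); without inhibitor-treated replicate 2 it passed (-0.35; limma adjusted p = 0.0318). The other probe set, 1450403_at, scattered more, with 5.13, 5.39 and 4.98, then 4.65 and 4.96, then 4.64, 4.79 and 5.18 in the same order (-0.36 ± 0.17; limma adjusted p = 0.123). Irf7, which drives the later, amplified wave of interferon production, stayed low, at 3.60, 3.90 and 3.77 with DMSO, 3.75 and 3.61 with the inhibitor, and 3.90, 3.77 and 3.78 after release. Its groups overlapped, and the change was -0.07 ± 0.097 with an interval of -0.29 to 0.14 (limma adjusted p = 0.608).

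Of the effectors, Oas1a fell more than any other member in the point estimate, and Ifitm1 also fell. Oas1a encodes an oligoadenylate synthetase, which upon binding double-stranded RNA makes the second messenger that activates RNase L. It read 8.59, 8.62 and 8.58 with DMSO, 7.09 and 7.05 with the inhibitor, and 8.57, 8.72 and 8.70 after release. The inhibitor-treated arrays stood far below the other 6, whose groups overlapped, and the log2 change was -1.53 ± 0.072, or 2.88-fold lower (limma adjusted p = 2.38e-07). Ifitm1, a small membrane protein that restricts virus entry and is also used as a stem and germ cell marker, read 11.82, 11.90 and 11.85 with DMSO, 11.29 and 11.27 with the inhibitor, and 11.52, 11.56 and 11.63 after release. The 3 groups did not overlap, with released arrays in between, and the change with the inhibitor was -0.58 ± 0.069, or 1.5-fold lower (limma adjusted p = 8.88e-05). Whether the Oas1a and Ifitm1 probes also bind RNA of their close relatives was not tested.

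Promoter sequence was examined because several members moved together, and 3 stretches are shown: those of Oas1a and Irf1, which fell, and that of Stat2, which did not pass. In the RefSeq promoter windows of GRCm38.p6 (250 bases before to 50 after the start of transcription), all 9 listed genes had an entry. The motif of the interferon-stimulated response element was searched as GAAA, any 2 bases, then GAAA, on both strands, where neighbouring matches may share a GAAA. It was found for 5 of the 9 genes (Ddx58, Ifih1, Isg15, Oas1a and Stat2), beside 3.99% of 27025 genes. The motif bound by STAT dimers, TTCNNNGAA, was found for 2 of the 9 (Irf1 and Oas1a), beside 9.55%. The MYC and MAX motif CACGTG was found for 0 of the 9, beside 8.09%, and with 9 genes this says little. Because the genes were listed as interferon and RNA sensing genes, their share with the interferon motif is no independent result. In Ddx58 and Ifih1 the match lies just after the start. Each stretch has 60 bases, written along the gene's strand, and capitals mark the first motif in Oas1a (2 overlapping matches) and Stat2 (on the opposite strand) and the STAT motif in Irf1.
Oas1a, chr5:120907526-120907585, minus strand: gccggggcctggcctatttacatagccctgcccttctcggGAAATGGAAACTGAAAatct
Irf1, chr11:53769898-53769957, plus strand: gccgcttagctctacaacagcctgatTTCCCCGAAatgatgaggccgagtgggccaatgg
Stat2, chr10:128270251-128270310, plus strand: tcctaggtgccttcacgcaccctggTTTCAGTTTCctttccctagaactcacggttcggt

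The Oas1a matches end 5 bases before the start, the Irf1 match runs from 90 to 82 bases before it, and the Stat2 match from 222 to 213 bases before it. Both genes with the STAT motif fell with the inhibitor, as did 5 of the 8 measured members in all. Whether genes with a motif fell more often than others was not tested. Of the 4 measured genes with the GAAA motif, Ddx58 and Oas1a fell while Ifih1 and Stat2 did not pass, and Irf9 and Ifitm1 fell with neither motif in the window. A match is a description of letters, not of binding.

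On withdrawal of the inhibitor, the 5 genes that had fallen were higher again. Of the 11 probe sets, 6 were higher in released than in inhibitor-treated arrays, against 19.9% of all probe sets, and 0 were lower, against 17% (limma adjusted p under 0.05; 7 and 0 at an unadjusted p). By gene, 5 of 8 rose, against 21.2%, and 0 fell, against 18.5%. This comparison shares the inhibitor-treated arrays with the one above, so its direction is not independent of it. The way the members were chosen limits these shares too. Oas1a rose 3.01-fold (1.59 ± 0.072; limma adjusted p = 1.53e-07), Ddx58 2.17-fold by 1436562_at (1.12 ± 0.07; limma adjusted p = 1.3e-06) and 1.61-fold by 1456890_at (0.69 ± 0.08; limma adjusted p = 7.8e-05). Irf1 rose by 0.64 ± 0.067 (limma adjusted p = 4e-05), Irf9 by 0.38 ± 0.081 (0.00404) and Ifitm1 by 0.29 ± 0.069 (0.00673). Ifih1 (-0.08 ± 0.1), Irf7 (0.14 ± 0.097), both Stat2 probe sets (0.15 ± 0.093 and 0.07 ± 0.17) and Ddx58 by 1446457_at (0.25 ± 0.088; limma adjusted p = 0.0522) did not pass. The last of these passed under 4 alternatives: without the lowest 30% of probe sets (limma adjusted p = 0.0335), with array weights (0.0402), without DMSO replicate 2 (0.0389) and without released replicate 2 (0.0419).

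**Figure D2:**
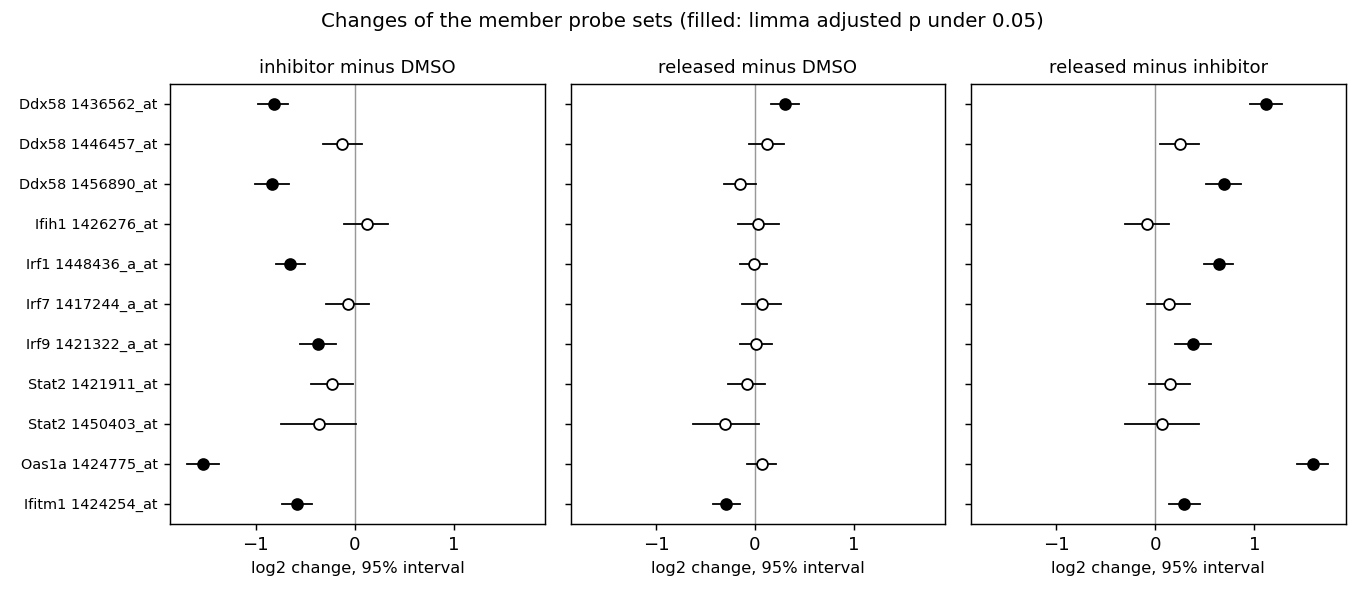
Log2 change with its 95% interval (horizontal axis) of the 11 probe sets in the 3 comparisons; filled points passed a limma adjusted p of 0.05. In the left panel 6 points are filled and lie below 0, in the right panel 6 are filled and lie above 0, and in the middle panel Ddx58 by 1436562_at (0.30) and Ifitm1 (-0.29) are filled.

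Differences between released and DMSO arrays were small in these genes, from -0.30 to 0.30 in log2 over the member probe sets. Of 11 probe sets, 1 was higher (9.09%, against 3.61% of all probe sets) and 1 lower (9.09%, against 3.02%). By gene these were 1 of 8 (12.5%, against 3.79%) and 1 of 8 (12.5%, against 3.29%). Ddx58 by 1436562_at lay 1.23-fold above DMSO (0.30 ± 0.063; limma adjusted p = 0.0218), but 1456890_at differed by -0.15 ± 0.071 (interval -0.31 to 0.01; limma adjusted p = 0.272), opposite in sign. The difference between the probe sets was not tested, and the mean of all 3 did not pass (0.09; limma adjusted p = 0.396). The call also ended without DMSO replicate 1 (0.0707) or 2 (0.0658) and without released replicate 2 (0.0565) or 3 (0.08). Ifitm1 lay 1.22-fold below DMSO (-0.29 ± 0.061; limma adjusted p = 0.0221), a call that ended without DMSO replicate 2 (0.0706) or 3 (0.054) and without released replicate 1 (0.0811) or 2 (0.0739). Oas1a (0.07 ± 0.064, interval -0.08 to 0.21; limma adjusted p = 0.613), Irf1 (-0.01 ± 0.06, interval -0.15 to 0.12; 0.933) and Irf9 (0.01 ± 0.072, interval -0.15 to 0.17; 0.954) did not pass, and neither did Ifih1 (0.03 ± 0.091), Irf7 (0.07 ± 0.087) or Stat2 (-0.08 ± 0.083 and -0.30 ± 0.15). Ordered by level, Oas1a, Irf1 and Irf9 were lowest with the inhibitor, with DMSO and released arrays not separated beyond their spread.

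The rest of the pathway was followed in 11 lists of 184 genes other than the members, of which 156 were measured. With the inhibitor 27 rose and 33 fell (17.3% and 21.2%, beside 18.5% and 21.1% of all genes), with a median log2 change of -0.06 here and over all genes. The shares called were near those of genes in general. In all, 15 of the 156 stayed below the highest Trpn control on all arrays. Among the 10 interferon genes measured, 3 did so and 1 passed, Ifnz (0.36 ± 0.095), whose call ended without inhibitor-treated replicate 1 (limma adjusted p = 0.0935). Ifnb1, the interferon beta gene, ran from 2.89 to 3.45, and the typical interferon targets Mx1 (2.7 to 2.94), Ifit1 (2.59 to 3.07) and Cxcl10 (2.43 to 2.81) were low in every group. These 4 were picked after their values were seen. Of the 38 antiviral effector genes, 5 stayed below the highest Trpn control on all arrays. Others lay well above it, such as Xaf1 and Ifi35, with mean levels of 8.82 and 7.99 with DMSO.

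**Figure D3:**
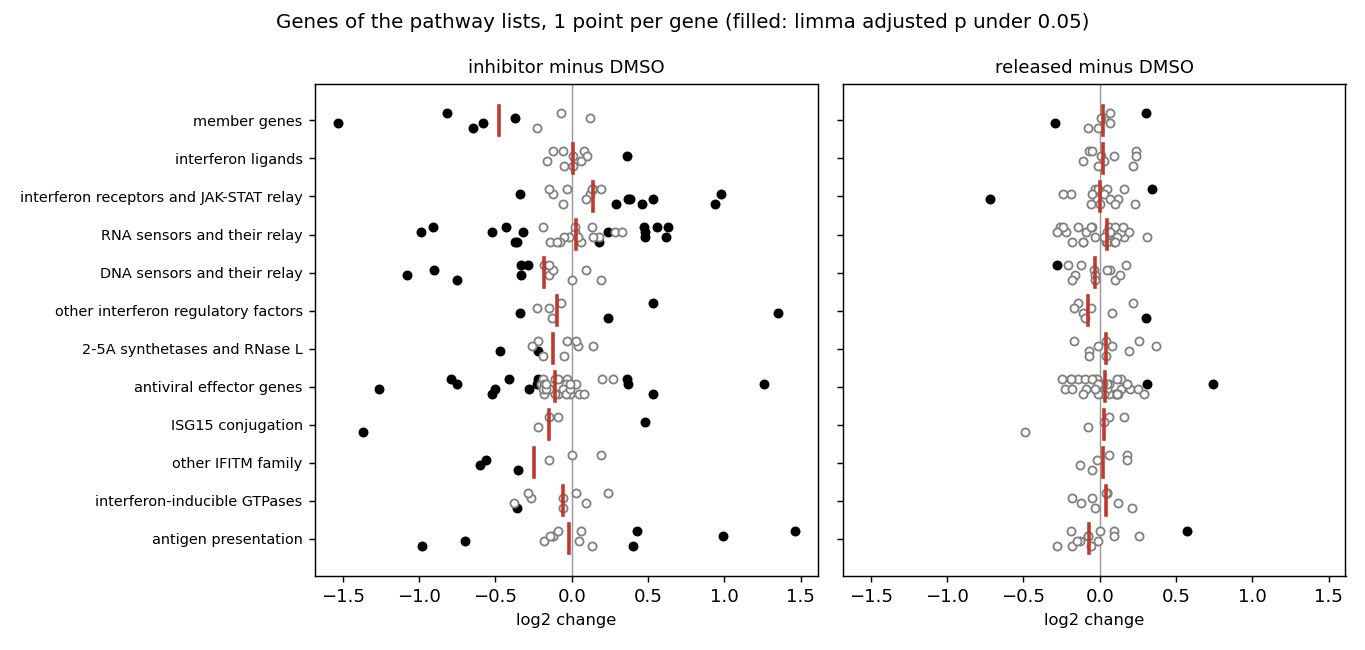
Log2 change (horizontal axis) of each measured gene, by list, for inhibitor-treated against DMSO arrays (left) and released against DMSO arrays (right); filled points passed a limma adjusted p of 0.05 and red lines are list medians. In the left panel filled points lie on both sides of 0 over the lists, from -1.53 for Oas1a to 1.46 for H2-D1, and in the right panel few are filled.

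Receptor and relay genes were more often higher than lower with the inhibitor: of 17 measured, 7 rose and 1 fell, with a median of 0.14. These are 41.2% and 5.88%, beside 18.5% and 21.1% of all genes. Il10rb, a shared receptor chain of interleukin 10 and interferon lambda, rose 1.97-fold (0.98 ± 0.088), the kinase Jak2 1.92-fold (0.94 ± 0.094) and the interferon gamma receptor chain Ifngr1 1.44-fold (0.53 ± 0.089). Of 2 probe sets of Il10rb 1 passed. The other differed by 0.02, and the mean of both by 0.50. Ifngr2 rose as well (0.29 ± 0.094), while the receptor chains Ifnar1 (0.14 ± 0.088), Ifnar2 (0.12 ± 0.11) and Ifnlr1 (-0.03 ± 0.09) did not pass. The rises include Socs3 (0.37 ± 0.071), a feedback inhibitor. Among RNA sensors and their relay, 8 of 30 rose and 7 fell (26.7% and 23.3%, beside the same shares of all genes). Eif2ak2, the kinase PKR that halts translation on binding double-stranded RNA, fell 1.98-fold (-0.99 ± 0.088) and Zbp1, a sensor of Z-form nucleic acid, 1.88-fold (-0.91 ± 0.11), each with 1 further probe set that did not pass; the mean over the probe sets of Eif2ak2 was -0.51. The kinase adaptor Tank rose (0.62 ± 0.068), though its other probe set changed by -0.31 and the mean of both did not pass (limma adjusted p = 0.0708).

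DNA sensor and nuclease genes with a call all fell, 6 of 13, with a median of -0.18 (6 lower and 0 higher also at an unadjusted limma p). The share lower was 46.2%, beside 21.1% of all genes, of which 18.5% rose. The 6 were Aim2, Mre11a, Samhd1, Rnaseh2a, Rnaseh2b and Rnaseh2c, the last 3 being subunits of 1 enzyme. Cgas (0.09 ± 0.11) and Sting1 (0.19 ± 0.085) did not pass. Samhd1, which hydrolyses deoxynucleotides, fell 2.11-fold (-1.08 ± 0.091, on 3 of 5 probe sets, with a mean of -0.37 over all 5), and the RNase H2 subunits Rnaseh2c (-0.90 ± 0.072) and Rnaseh2a (-0.75 ± 0.068), which remove RNA from DNA hybrids, fell 1.87-fold and 1.69-fold. Among the other interferon regulatory factors and their partners, 3 of 8 rose and 1 fell (37.5% and 12.5%). The corepressor Irf2bp2 rose 2.54-fold (1.35 ± 0.066, and on all of its 4 probe sets). Irf2 also passed, but its signal lay below the highest Trpn control on all arrays, and no fold is given. Irf5 fell (-0.34 ± 0.092), a call that ended without inhibitor-treated replicate 1 (limma adjusted p = 0.106).

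Relatives of Ifitm1 and Oas1a were examined next. The share lower with the inhibitor was 50% for the Ifitm genes and 20% for the oligoadenylate synthetase list, beside 21.1% of all genes. Of 6 other Ifitm genes, 3 fell: Ifitm3 (-0.60 ± 0.069) and Ifitm2 (-0.56 ± 0.073), which flank Ifitm1 on the chromosome, and Ifitm5 (-0.35 ± 0.12), whose call ended without inhibitor-treated replicate 1 or 2, DMSO replicate 1 or 2 or released replicate 2 (limma adjusted p up to 0.273). None of the 6 rose in limma (0 at an unadjusted p). Of 10 other oligoadenylate synthetase genes and partners, 2 fell, Oas1c (-0.47 ± 0.094) and Oas2 (-0.22 ± 0.064), the second a call that ended without either inhibitor-treated array or DMSO replicate 1 (up to 0.131) and with trend and robust fitting (0.0616). Among 5 genes of ISG15 conjugation, the conjugating enzyme Ube2l6 fell 2.58-fold (-1.37 ± 0.16) and the ligase Trim25, which also activates RIG-I, rose 1.4-fold (0.48 ± 0.072). Each is 20% of that list, beside 21.1% of all genes lower and 18.5% higher.

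Antiviral effector genes showed 4 rises and 9 falls among 38, with a median of -0.11. Ifi35 fell 2.4-fold (-1.26 ± 0.086) and Dtx3l, a ubiquitin ligase, 1.68-fold (-0.75 ± 0.093), while Parp12, an ADP-ribosyltransferase, rose 2.39-fold (1.26 ± 0.15). Of 9 interferon-inducible GTPases 1 passed, Irgm1 (-0.36 ± 0.084), a share of 11.1% lower beside 21.1% of all genes. Antigen presentation split, with 4 of 14 higher and 2 lower (28.6% and 14.3%, beside 18.5% and 21.1% of all genes). The class I heavy chains H2-D1 (1.46 ± 0.095) and H2-K1 (0.99 ± 0.08) rose 2.76-fold and 1.99-fold, while the immunoproteasome subunit Psmb10 fell 1.97-fold (-0.98 ± 0.11). H2-D1 has 9 probe sets, of which 4 rose, and their changes ran from -0.19 to 1.46 with a mean of 0.38; H2-K1 rose on 3 of 4 probe sets, and the lowest of the 4 was -0.18. The heavy-chain genes are close in sequence, and probes may not separate them.

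After release, 34 of the 156 pathway genes were higher and 26 lower than with the inhibitor (21.8% and 16.7%, beside 21.2% and 18.5% of all genes). Ifi35 rose 2.5-fold, and Samhd1 (1.05 ± 0.091), Dtx3l (0.93 ± 0.093), Eif2ak2 (0.90 ± 0.088), Ube2l6 (0.88 ± 0.16) and Rnaseh2c (0.86 ± 0.072) rose by up to 2.07-fold. Rnaseh2a (0.57 ± 0.068), Psmb10 (0.70 ± 0.11), Irgm1 (0.57 ± 0.084), Ifitm2 (0.54 ± 0.073), Ifitm3 (0.47 ± 0.069), Irf5 (0.42 ± 0.092) and Oas2 (0.41 ± 0.064) rose too. Oas1c (0.40 ± 0.094) and Ifitm7 (0.34 ± 0.083) also rose, calls that ended without inhibitor-treated replicate 1 (limma adjusted p = 0.0695) and replicate 2 (0.104) respectively. Among the 26 falls were those of Irf2bp2 (-1.46 ± 0.066), Parp12 (-1.25 ± 0.15), Il10rb (-1.22 ± 0.088), Socs3 (-1.09 ± 0.071) and H2-K1 (-1.07 ± 0.08). H2-D1 (-0.89 ± 0.095), Myd88 (-0.89 ± 0.086), Rnf125 (-0.79 ± 0.07), Jak2 (-0.71 ± 0.094) and Trim25 (-0.45 ± 0.072) fell too. Irf2 also passed as lower, with its signal below the highest Trpn control, and no fold is given. On 1 of the 9 H2-D1 probe sets the sign was opposite and passed. As the mean of all its probe sets, the change was -0.19 for H2-D1, -0.64 for H2-K1, -0.57 for Il10rb, 0.41 for Samhd1 and 0.40 for Eif2ak2.

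Against DMSO, 5 pathway genes were higher and 2 lower after release (3.21% and 1.28%, beside 3.79% and 3.29% of all genes). Not all had moved the same way with the inhibitor, where Sp100 did not pass (0.03) and Socs3 was higher (0.37). These 7 calls became 3 without released replicate 2 and 4 without DMSO replicate 1 or released replicate 3. The balance of directions depended on the fit, with 6 higher and 9 lower under trend and robust fitting and 8 and 5 without the lowest 30% of probe sets. None of the 30 genes of RNA sensing passed in limma, with 2 higher and 4 lower at an unadjusted p under 0.05. Sp100, a nuclear body protein, was 1.67-fold higher (0.74 ± 0.086; limma adjusted p = 0.00102) and H2-D1 1.49-fold higher (0.57 ± 0.085; 0.00375), or 0.19 as the mean of its 9 probe sets (0.0482). Socs3, a feedback inhibitor of JAK signalling, was 1.65-fold lower (-0.72 ± 0.063; limma adjusted p = 0.000181, on all 3 of its probe sets). Ptpn6 (0.34 ± 0.069), Znfx1 (0.31 ± 0.066), Irf2bpl (0.30 ± 0.063) and Aim2 (-0.28 ± 0.067) passed too. Each of these 4 calls ended without DMSO replicate 1 or 3 or released replicate 2, that of Aim2 also without DMSO replicate 2, those of Aim2 and Znfx1 without released replicate 1, and those of Aim2, Znfx1 and Irf2bpl without released replicate 3 (limma adjusted p up to 0.119).

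Likeness was measured as the root mean square difference of log2 level over the 8 arrays, after each gene's DMSO mean was taken off, for the members that changed at least 2-fold. The genes nearest to Oas1a were Kif20a (0.052), a mitotic kinesin, Fbxo5 (0.057), an inhibitor of the anaphase-promoting complex, and Zfp473 (0.06). Nearest to Ddx58 by 1436562_at were the channel gene Trpm1 (0.023), Fanci (0.049), of the Fanconi repair pathway, and Id4 (0.051).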

How the data were processed

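Total RNA of 8 samples was read on 8 Affymetrix arrays. The table deposited by the authors gives each probe set a log2 level on each array. No label states the scale, which was inferred from the range of 1.69 to 13.76. The submitters' processing notes name oligo 1.32.0, RMA and limma 3.2.15. RMA equalises arrays, so a change of RNA amount shared by most genes is not visible; aligner and build do not apply. Detection calls were not used here.

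Of 45101 probe sets, the 34945 with 1 gene symbol in the platform annotation were fitted (932 have several, 9160 are not named here, 64 are controls). Gene numbers of 34741 matched a RefSeq list of GRCm38.p6, which changed 0 symbols; promoter sequences are RefSeq's, of the same build. limma 3.58.1 (lmFit, eBayes; R 4.3.3) was run with 1 mean per group over all 8 arrays, with 5 residual degrees of freedom. P-values were two-sided and Benjamini-Hochberg adjusted over all 34945 probe sets, with a threshold of 0.05. A gene was represented by its probe set with the highest mean. No filter on level was applied. Alternatives were 1 probe set or the mean of probe sets per gene, all 45101 probe sets, a filter on low levels, median centring, quantile normalization, array weights, trend and robust fitting, a stricter threshold, the compared groups alone, a replicate block and each array left out. Named are all member probe sets and, per pathway list and comparison, the up to 3 passing genes with the smallest p. Some other genes are named beside these. Members and lists were chosen with earlier results of these data known. Python 3.11.15 with pandas 2.3.3, numpy 2.4.6 and matplotlib 3.10.9 read tables and drew figures.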

Additional observations from a re-analysis of the deposited data

How the results depend on the processing

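Every count was recomputed under 19 alternatives. The number of member probe sets called was 6 for inhibitor-treated against DMSO arrays (5 to 7 over the alternatives) and 6 for released against inhibitor-treated arrays (5 to 7), and no called change reversed. For released against DMSO arrays it was 2. It was 1 with the mean of the probe sets of a gene and 0 at an adjusted p under 0.01, and it ran from 0 (without DMSO replicate 2 or released replicate 2) to 2 when each array was left out in turn, with 1 without any of the other DMSO or released arrays; this leaves 1 inhibitor-treated array in some fits, assumed to vary like the others. The 7 other pathway genes called there became 12 with 1 probe set per gene, 14 with the mean of probe sets, 13 without the lowest 30% of probe sets, 15 (6 of them higher, 9 lower) with an intensity trend and robust fitting, and 3 at an adjusted p under 0.01, and ran from 3 (without released replicate 2) to 8 (without DMSO replicate 2) when each array was left out, with 4 without DMSO replicate 1 or released replicate 3. The cause of these differences was not tested.

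No pairing of the arrays by the replicate numbers of the labels was seen. Correlations of deviations from the group means between arrays of the same number lay between -0.05 and 0.01. With so few arrays per group, these correlations cannot show that the arrays were unpaired. With the replicate number as a block, 1 member probe set was called between released and DMSO arrays, Ddx58 by 1436562_at (limma adjusted p = 0.0439), and Ifitm1 was not (0.0545). The block also ended the calls of Oas2 (0.0518) and Ifitm5 (0.081) between inhibitor-treated and DMSO arrays and of Aim2 (0.0618) between released and DMSO arrays. Members near the Trpn controls, Ifih1 and Irf7, are limited by signal over background.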
